A study of Mus musculus with 9 samples.

Results

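A set of 10 classical antiviral genes of the type-I interferon response, namely Ifit1, Ifit2, Ifit3, Ifit3b, Isg15, Usp18, Rsad2, Oasl2, Oas1a and Rtp4, was followed through single-cell RNA sequencing of the adult mouse brain. They were chosen as classical interferon-stimulated antiviral genes, with earlier results of these data known, and all 10 were found among the 32287 genes of the matrix. Cells came from male TiCY mice on a C57BL/6 background, in which tamoxifen turns on a yellow fluorescent protein (eYFP) in Tlx-expressing neural stem cells and their progeny. The wild-type (WT) mice carried the Cre driver and the reporter. The IFNAGR KO (KO) mice carried both together with targeted receptor genes for type-I (Ifnar1) and type-II (Ifngr1) interferon. The strain names of both genotypes also list a Fas allele (Fastm1Cgn). WT young mice were 16 weeks old, with tamoxifen at 10 weeks and a chase of 6 weeks. WT old mice were 80 weeks old, with tamoxifen at 71 weeks and a chase of 9 weeks. KO young mice were 16 weeks old, with tamoxifen at 7 weeks and a chase of 9 weeks. KO old mice were labelled 92 to 105 weeks old, with tamoxifen at 85 and 98 weeks and a chase of 9 weeks, and these ages do not add up as they do in the other groups. The old groups differ in age as well as in genotype. From the ventricular-subventricular zone (vSVZ), eYFP+ and GLAST+ cells were sorted. The other tissue sample (RoB) combined the olfactory bulb with the striatum and the rostral migratory stream, and from it eYFP+ and eYFP-/PSANCAM low cells were sorted, and CD45+, Ter119+ and O4+ cells were gated out of both. Each group was 1 droplet reaction holding 2 mice, and antibody hashtags named the tissue and the mouse, so that group and reaction cannot be told apart.

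Type-I interferons bind a receptor made of Ifnar1 and Ifnar2, and the signal leads to the factor ISGF3, which binds the interferon-stimulated response element in promoters. The products of the genes so induced act on viral RNA and proteins. The IFIT proteins bind foreign RNA, and Ifit1 recognises RNA whose cap lacks the methyl mark of the host. Isg15 is a ubiquitin-like protein that is attached to other proteins, and Usp18 removes it and also damps the receptor. Oas1a makes the oligoadenylates that switch on RNase L, and Oasl2 is a relative of the OAS enzymes. Rsad2 (viperin) makes a nucleotide that stops viral RNA synthesis, and Rtp4 is an interferon-induced protein that restricts RNA viruses.

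The 4 IFIT genes lie side by side on chromosome 19, within 99.32 kb (GRCm38, GENCODE annotation, chr19:34550694-34650009), in the order Ifit2, Ifit3, Ifit1bl1, Ifit3b, Ifit1bl2 and Ifit1. The other members are spread out, with Isg15 at chr4:156199424-156200818, Usp18 at chr6:121245906-121270917, Rsad2 at chr12:26442746-26456452, Oasl2 at chr5:114896936-114912234, Oas1a at chr5:120896256-120907521 and Rtp4 at chr16:23520291-23614222. All 10 are protein-coding. Of the 31-base words in the Ifit3 transcripts, 61.8% also occur in Ifit3b, and of those of Oas1a 68.7% occur in its neighbour Oas1g. In the last 500 bases of the transcripts, where 3′ reads mostly fall, the shares were 24.0% of Ifit3 words in Ifit3b, 4.58% of Ifit3b words in Ifit3 and 70.0% of Oas1a words in Oas1g. The split of reads is therefore uncertain for Oas1a and Oas1g, and less so for Ifit3 and Ifit3b.

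Because the members are known as one induced set, their promoters were searched for the core of the response element, GAAA followed by any 2 bases and again GAAA, on both strands (TTTC on the other strand). RefSeq promoters of the build GRCm38.p6, from 250 bases before to 50 bases after a gene's start, held 8 of the 10 members. Of those 8 genes, 6 contained the motif, against 3.44% of all 32851 promoters. The latter share counts promoters and not genes, and a gene such as Ifit2 can have more than a single promoter. A window of 30 bases around the first match is printed 5′ to 3′ on the strand of the gene, with each GAAA or TTTC of the motif in capitals.
Ifit1, chr19:34640775-34640804, plus strand: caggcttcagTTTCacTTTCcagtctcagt
Ifit3, chr19:34583363-34583392, plus strand: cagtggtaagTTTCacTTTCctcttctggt
Ifit3b, chr19:34607759-34607788, plus strand: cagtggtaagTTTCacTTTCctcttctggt
Isg15, chr4:156200877-156200906, minus strand: tatgccgtagGAAAagGAAAccGAAAcaga
Oas1a, chr5:120907526-120907555, minus strand: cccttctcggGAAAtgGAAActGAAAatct
Rsad2, chr12:26456553-26456582, minus strand: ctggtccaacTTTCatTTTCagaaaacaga

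The Ifit3 and Ifit3b windows were identical, as the paralogs are over much of their transcripts. In Isg15 and Oas1a the GAAA core stood 3 times in a row in the gene's own direction, which gave 2 overlapping matches in each of these windows. Across the whole promoter there were 3 matches in Isg15, 2 each in Ifit1, Ifit3, Ifit3b and Oas1a, and 1 in Rsad2. The 2 promoters listed for Ifit2 and the 1 for Oasl2 held no match, which says only that these letters are not in those windows. Promoters of Usp18 and Rtp4 were not analysed here.

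After filtering and removal of predicted doublets, 18051 cells were left, 5818 from WT young, 2394 from WT old, 6462 from KO young and 3377 from KO old, with medians of 5067 to 7437 unique molecular identifiers (UMIs) per cell before doublet removal. A UMI is 1 counted RNA molecule, and levels are given as CPM, the UMIs of a gene per 1000000 UMIs of the same cells. Cells were clustered without the members and named from marker lists. A hashtag could be called in 32.2% of cells, and only those cells entered tests over mice. Of 18360 cell barcodes, 30 occurred in more than 1 library. The receptor genes followed the labels: over all cells, Ifngr1 was at 46.8 CPM for WT young and 85.5 for WT old, against 2.86 for KO young and 4.404 for KO old, and Ifnar1 was at 21.3 and 28.5 against 8.07 and 6.57. Where the 3′ reads of these genes lie relative to the targeted parts was not analysed here.

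**Figure D1:**
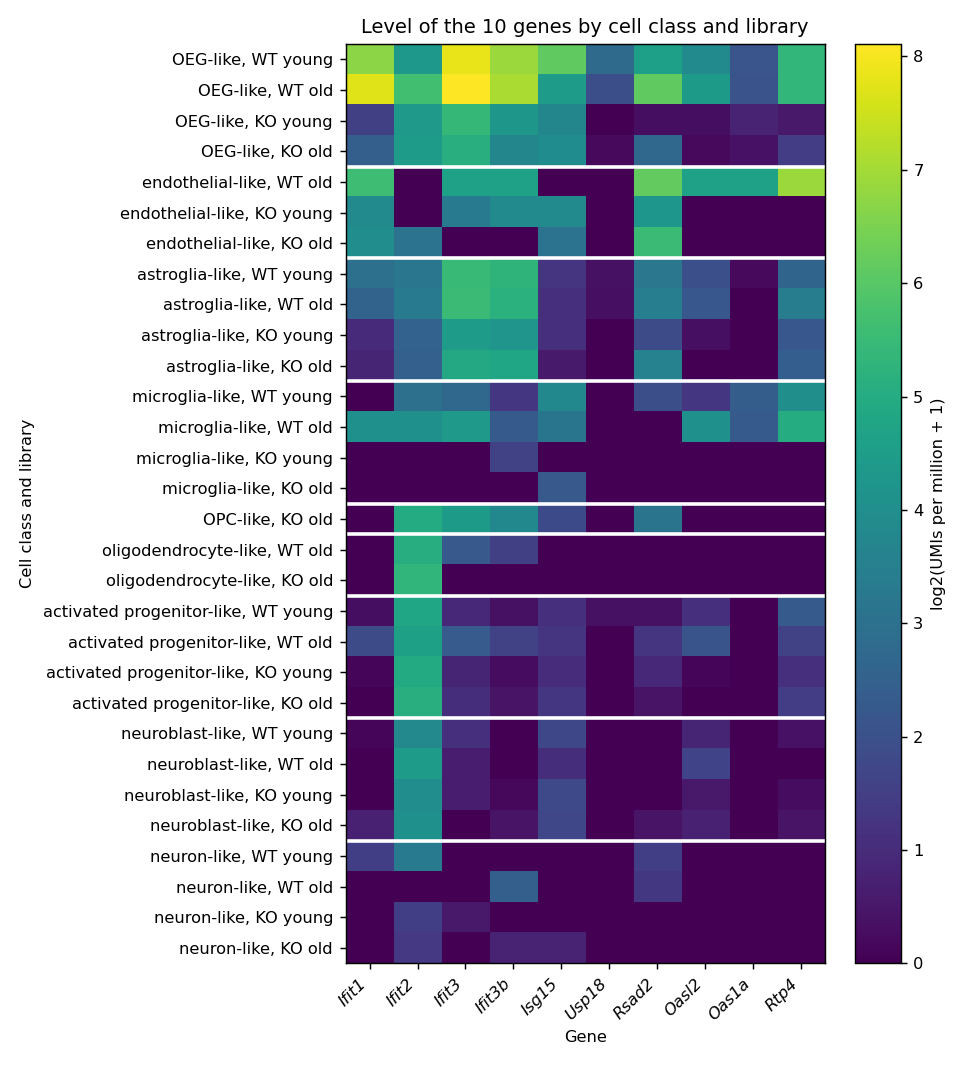
Level of each of the 10 genes (columns) in each cell class and library (rows), as log2 of CPM plus 1 on the colour scale. Rows with fewer than 20 cells are not drawn, and white lines separate the classes. The WT rows of OEG-like cells are bright across most genes, and the column of Ifit2 is bright in progenitor-like, oligodendrocyte-like and neuroblast-like cells of both genotypes.

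Among the classes, the summed level of the members was highest in cells resembling olfactory ensheathing glia (OEG-like), the glia that wrap olfactory axons. These cells expressed Frzb, Npy, Sox10, Vtn and other markers. Their 8 markers summed to between 30490 and 31990 CPM in each of the 4 libraries. The 10 members summed to 624 CPM in OEG-like cells of WT young mice (95% interval for counting error 579 to 671, 192 cells) and to 825 in WT old mice (800 to 851, 607 cells). In KO mice they summed to 94.7 (85.6 to 104, 453 cells) when young and 93.1 (85.7 to 101, 772 cells) when old. The WT level was thus 6.59 times that of KO in young mice (interval 5.82 to 7.46) and 8.87 times in old mice (8.13 to 9.69). These intervals treat UMIs as independent, which understates the error because UMIs were concentrated in few cells, as described further on. Endothelial-like cells came next, at 364 and 332 CPM in WT young and old, and astroglia-like cells, a class of quiescent stem cells and astrocytes, stood at 115 and 119. The intervals of endothelial-like cells (233 to 541 and 221 to 480) lay below that of OEG-like cells at each age and above that of astroglia-like cells. The first rank of OEG-like cells rested on few high cells and was not resolved without them, as given further on. By the share of cells with at least 1 member UMI after thinning to 1000 UMIs, the order of the first 2 classes was not the same, at 35.7% and 28.6% in endothelial-like and 22.4% and 29.3% in OEG-like cells of WT young and old mice. Oligodendrocyte precursor-like cells were few, with 11 and 17 cells at 104 and 129, and microglia-like cells were at 50.8 and 113. Activated progenitor-like cells at 35.2 and 40.1, oligodendrocyte-like cells at 38.3 in WT old, neuroblast-like cells at 17.8 and 24.5 and neuron-like cells at 12.8 and 6.01 followed.

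In OEG-like cells of hashtagged mice, all IFIT genes but Ifit2 separated the genotypes in every mouse. Ifit1 was at 125 and 117 CPM for the WT young mice, 204 and 249 for the WT old mice, 1.36 and 1.76 for the KO young mice, and 3.69 and 4.22 for the KO old mice. Every WT mouse was thus far above every KO mouse, and the edgeR quasi-likelihood test gave a log2 fold change of KO over WT, averaged over both ages, of -5.96 (SE 0.21, adjusted p = 1.39e-12). Ifit3 was at 372 and 227 for WT young, 277 and 312 for WT old, 46.1 and 48.4 for KO young, and 34.8 and 36.6 for KO old mice. It fell by 2.80 on the log2 scale (SE 0.13, adjusted p = 6.48e-11). Ifit3b was at 211 and 94.9, 117 and 163, 21.7 and 17.6, and 11.6 and 13.01 in the same order of groups, and it fell by 3.15 (SE 0.21, adjusted p = 2.72e-08). The Ifit3 and Ifit3b groups did not overlap either, but both genes were at no less than 11.6 CPM in the KO mice where Ifit1 kept only a few.

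Ifit2 behaved differently from its neighbours in the cluster. It was at 31.8 and 17.7 CPM for WT young, 43.8 and 60.1 for WT old, 16.9 and 23.8 for KO young, and 26.3 and 17.2 for KO old mice. The WT young and KO mice overlapped, and the change over both ages missed the threshold, with a log2 fold change of -0.74 (95% interval -1.27 to -0.20, adjusted p = 0.250 by edgeR). Between old mice alone it passed, at -1.21 (SE 0.24, adjusted p = 0.0205). That call was lost without WT old mouse 2 (adjusted p = 0.582) or KO old mouse 2 (adjusted p = 0.290).

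Isg15, the ubiquitin-like modifier, was at 73.4 and 86.1 CPM for WT young, 21.9 and 20.9 for WT old, 6.10 and 22.0 for KO young, and 14.2 and 17.9 for KO old mice. The WT young mice stood apart, while 1 of the KO young mice reached the level of the WT old mice. Over both ages Isg15 fell by 1.44 on the log2 scale (SE 0.25, adjusted p = 0.00432). In young mice it fell by 2.57 (adjusted p = 0.00160), and in old mice the difference was -0.31 (95% interval -0.97 to 0.34, adjusted p = 0.874). Usp18, which removes Isg15 from its targets, was sparse and too low to be tested. It had 7 UMIs in the 192 OEG-like cells of WT young, 14 in the 607 of WT old, 0 in the 453 of KO young and 1 in the 772 of KO old mice. Its level in WT young was at least 8.40-fold higher than in KO young, counting the latter at a floor of 3 UMIs over the group, and in old mice the ratio was 17.8 (interval 2.71 to 754).

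Of the OAS genes, Oasl2 was at 14.7 and 17.7 CPM for WT young and 23.2 and 19.6 for WT old mice. In KO mice it was at 0 and 0.880 when young and 0 and 0.352 when old, which is 1 UMI in each of 2 mice. The groups did not overlap, and the fall passed the test over both ages (adjusted p = 1.08e-05). Its fitted change depends on how near-zero counts are treated, so the ratio of UMIs is given instead, 57.6 in young mice (interval 8.95 to 2417) and 127 in old mice (22.3 to 5080). Oas1a was low throughout, at 7.34 and 2.21 for WT young, 6.13 and 0.931 for WT old, 0 and 0.880 for KO young, and 0.527 and 0 for KO old mice. Its log2 fold change of -3.46 had a 95% interval from -5.85 to -1.07 and missed the threshold (adjusted p = 0.222).

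Rtp4 was at 58.7 and 33.1 CPM for WT young, 46.4 and 34.9 for WT old, 0 and 0.880 for KO young, and 0 and 3.17 for KO old mice. The groups did not overlap, and Rtp4 was called lower in KO mice at adjusted p = 1.01e-06 over both ages. Rsad2 varied most between mice of a group, at 61.2 and 4.42 for WT young, 27.1 and 126 for WT old, 0.678 and 0 for KO young, and 6.85 and 2.46 for KO old mice. The lower WT young mouse lay between the KO old mice. Of the 27 UMIs of Rsad2 in OEG-like cells of WT young mice, 25 came from 1 cell. Over both ages Rsad2 passed the test (log2 fold change -5.07, SE 0.94, adjusted p = 0.00941), but without WT young mouse 1, which holds that level of 61.2, its adjusted p was 0.563.

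**Figure D2:**
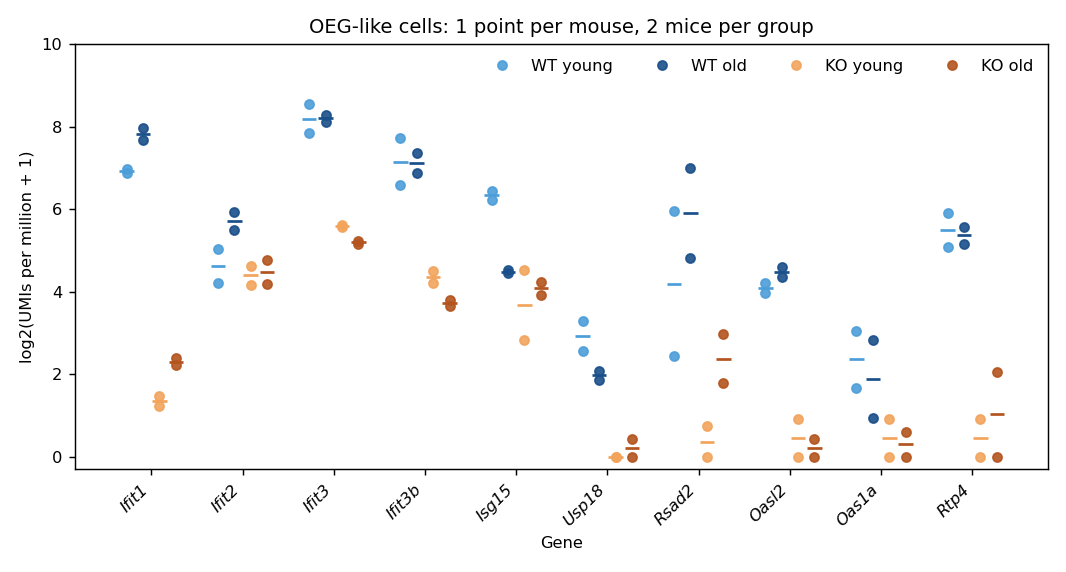
Level of each gene in OEG-like cells, as log2 of CPM plus 1, with 1 point per mouse, 2 mice per group and a bar at the mean of the 2 log values. For Ifit1, Ifit3, Ifit3b, Oasl2, Usp18 and Rtp4 every WT point is above every KO point, and for Ifit2, Isg15, Rsad2 and Oas1a the groups overlap or nearly touch.

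In all, 7 of the 9 members that passed the filter on low counts were called lower in KO OEG-like cells over both ages (Ifit1, Ifit3, Ifit3b, Isg15, Rsad2, Oasl2 and Rtp4), where 0.387% of the 10084 genes tested were called lower. None was called higher. In young mice 6 of 9 were called lower, against 0.208% of all genes tested, and these were Ifit1, Ifit3, Ifit3b, Isg15, Oasl2 and Rtp4. In old mice 7 of 9 were called lower, against 0.307%, with Ifit2 and Rsad2 in and Isg15 out. DESeq2 called 7 members over both ages and 5 in old mice. In young mice it called 5, with no adjusted p for 2 members. The 9 include Ifit1, Rsad2, Oasl2, Oas1a and Rtp4, which were low in KO mice and passed the filter through the WT mice. The counts therefore describe the members and are no support beyond the single genes.

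**Figure D3:**
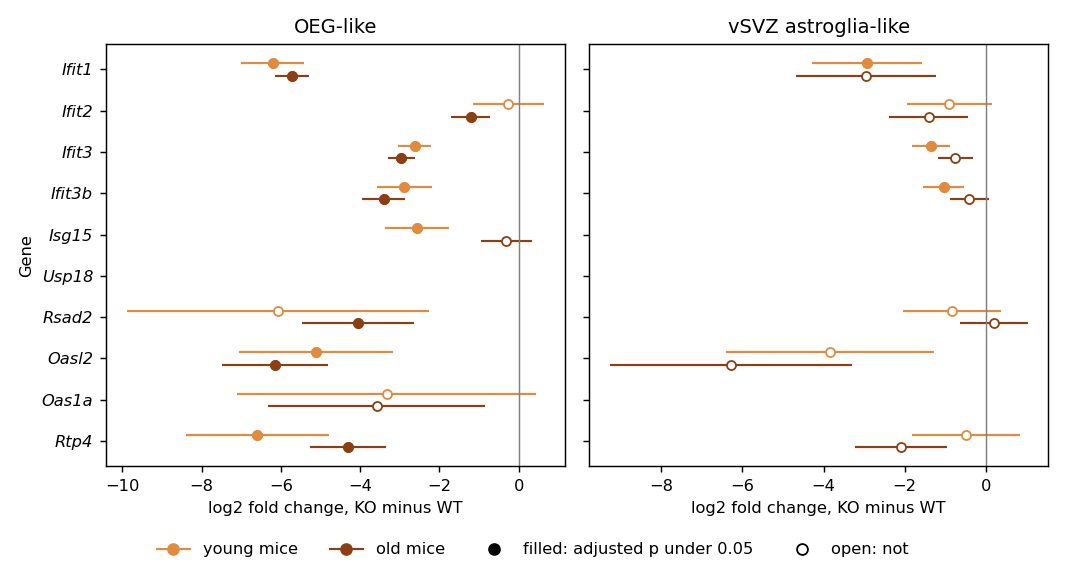
Log2 fold change of KO over WT for each gene from edgeR in OEG-like (left) and vSVZ astroglia-like (right) cells, in young and old mice, with bars for the 95% interval. Filled points have an adjusted p under 0.05, open points do not, and genes without a point were not tested. In OEG-like cells Ifit1 lies near -6 and Ifit3 near -3 at both ages, and in vSVZ astroglia-like cells no point is filled in old mice.

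Within OEG-like cells the members were not spread evenly. In WT young mice 111 of 192 cells had at least 1 member UMI (57.8%), and in WT old mice 453 of 607 (74.6%). In KO mice the share was 45.9% when young and 43.9% when old, although the KO young cells were the deepest, with a median of 9256 UMIs per cell against 5991 in WT young. With each cell thinned to 1000 UMIs the shares were 22.4% and 29.3% in WT young and old, and 9.71% and 7.51% in KO. Cells with 3 or more different members made up 10.4% and 22.7% in WT young and old, and 2.87% and 2.33% in KO. For Ifit1 alone the share of cells with a UMI was 10.4% and 24.2% in WT, and 1.32% and 2.72% in KO OEG-like cells. In neuroblast-like cells of the same WT libraries, at median depths of 4149 and 5680, it was 0.0349% (1 of 2865 cells) and 0 of 317.

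A small number of WT cells held most of these UMIs. Of OEG-like cells, 4 in WT young and 31 in WT old mice had 20 or more UMIs of the members, and they held 58.1% and 62.1% of the members' UMIs in their group. The highest cell had 603. In KO mice 0 of 6462 and 0 of 3377 cells of any class reached 20 UMIs, and the highest KO OEG-like cell had 13. Just below and above this limit, WT old mice had 16 OEG-like cells with 15 to 19 UMIs and 9 with 20 to 24. The high cells of WT old carried 90.4% of Rsad2, 73.3% of Ifit1, 64.7% of Ifit3b and 57.3% of Ifit3 UMIs, but 32.7% of Isg15 and 34.2% of Ifit2. In these 31 cells Ifit3 was found in all, Ifit3b in 30, Ifit1 in 29, Rtp4 in 24, Isg15 and Oasl2 in 18 each, Ifit2 in 15 and Rsad2 in 10. Both WT old mice had such cells, with 23 high cells of any class tagged to RoB mouse 1 and 9 to RoB mouse 2. Without the high cells the members summed to 268 CPM for WT young and 332 for WT old OEG-like cells, still above the 94.7 and 93.1 of KO. Endothelial-like cells, none of which reached 20 UMIs, were at 364 and 332 in WT young and old. Without their high cells, the OEG-like levels lay within the intervals of endothelial-like cells given above, which rest on 14 and 21 cells. The order of these 2 classes was then not resolved. The high cells were chosen by their member UMIs. The limit of 20 UMIs is not scaled to depth, and endothelial-like cells were shallower, at a median of 4161 UMIs per cell.

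**Figure D4:**
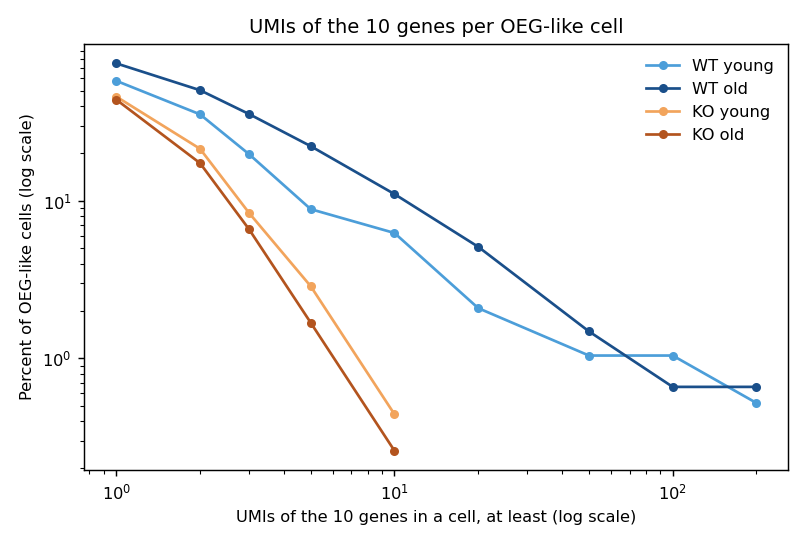
Percent of OEG-like cells (vertical, log scale) that had at least a given number of UMIs of the 10 genes (horizontal, log scale), 1 line per library. Points at 0 cells are not drawn. The KO lines end at 10 UMIs with 0.442% and 0.259% of cells, while the WT lines reach 200 UMIs with 0.521% and 0.659%.

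The members were high in both OEG-like clusters. In cluster 5, led by Vtn and Apod, the summed members were at 878 and 940 CPM in WT young and old, and at 112 and 100.3 in KO. In cluster 9, led by Apod and Npy, the summed members were at 295 and 668 in WT, and at 82.5 and 86.1 in KO. Cldn5, an endothelial junction gene on the endothelial list, was also higher in WT OEG-like cells, at 646 and 768 CPM in WT young and old and 345 and 459 in KO, while the other 7 endothelial markers stayed between 0 and 6.00 and Pecam1 and Cdh5 at or near 0. The part of other cells' RNA in the members' levels was not tested.

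Astroglia-like cells of the vSVZ, the class that holds the quiescent stem cells, carried lower levels of the members than OEG-like cells. Whether the change with genotype differed between these classes was not tested. Over both ages 4 of 7 tested members were called lower in KO (Ifit1, Ifit3, Ifit3b and Oasl2), against 0.356% of the 10400 genes tested. Ifit1, low in every KO mouse, and Oasl2, with 1 UMI over the 4 KO mice, passed the filter on low counts through the WT mice. The count is therefore no support beyond the single genes. Ifit1 was at 28.7 and 9.83 CPM for WT young, 5.46 and 9.04 for WT old, 0 and 4.10 for KO young, and 0.845 and 0.956 for KO old mice. All WT mice were above all KO mice, and Ifit1 fell by 2.95 on the log2 scale (SE 0.53, adjusted p = 0.00273). Ifit3 was at 73.8 and 54.1 for WT young, 57.4 and 44.8 for WT old, 19.7 and 27.8 for KO young, and 32.1 and 24.9 for KO old mice, again without overlap. It fell by 1.05 (SE 0.15, adjusted p = 1.67e-04). Ifit3b was at 72.5 and 36.5, 39.1 and 37.6, 24.6 and 24.1, and 31.7 and 23.9 in the same order, and fell by 0.73 (SE 0.17, adjusted p = 0.0307). Oasl2 was at 7.50 and 2.81 for WT young, 10.0 and 2.86 for WT old, 0.547 and 0 for KO young and 0 for both KO old mice, and it was called lower (adjusted p = 0.00539).

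Ifit2 (log2 fold change -1.15, adjusted p = 0.126), Rtp4 (-1.29, adjusted p = 0.194) and Rsad2 (-0.32, 95% interval -1.04 to 0.41) did not pass the test over both ages. In young mice 3 of 7 were called lower (Ifit1, Ifit3 and Ifit3b), against 1.17% of all genes tested. In old mice 0 of 7 were called in either direction, against 0.202%, with 5 at an unadjusted p under 0.05 in edgeR and 0 called by DESeq2. The count over both ages went from 4 to 1 without WT young mouse 1, the mouse with the highest Ifit1, and to 2 without either WT old mouse. It was 1 without the astroglia-like cluster in which 50.7% of cells had an eYFP UMI, and 0 when every cell was thinned to 1000 UMIs, with 2 members left to test. In that eYFP-rich cluster 8 the summed members were at 177 and 221 CPM in WT young and old, and at 78.3 and 77.9 in KO. Cells with 20 or more member UMIs were rare in this class, with 5 of 1247 cells in WT young, 2 of 1073 in WT old and 0 in KO mice. In RoB astroglia-like cells only Ifit3 and Ifit3b could be tested, and 0 of 2 were called over both ages, against 0.419% of the 7161 genes tested, with 1 at an unadjusted p under 0.05 in edgeR and 0 called by DESeq2. Ifit3 differed by -0.54 (95% interval -1.10 to 0.02) and Ifit3b by -0.71 (-1.37 to -0.05) on the log2 scale.

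Because OEG-like and RoB astroglia-like cells came from the same pooled tissue sample and mice, the classes were also compared within mice. The pool holds the olfactory bulb, the striatum and the rostral migratory stream, so the classes can differ in region. In WT mice all 8 members that could be tested were called higher in OEG-like cells, but so were 22.6% of the 9246 genes tested. Only Ifit3 and Ifit3b passed the filter on low counts in RoB astroglia-like cells by themselves. Other members could enter this comparison through the OEG-like cells of WT mice, where they are high. The counts of members in this comparison are therefore no support beyond the single genes. The log2 differences ran from 1.88 for Rtp4 to 5.51 for Ifit1 (SE 0.26, adjusted p = 3.10e-18), with 4.93 for Isg15 and 2.07 for Ifit2. In KO mice 5 of 8 were called in either direction, against 47.2% of all genes, so a call was common among all genes too. Ifit1, Ifit2, Ifit3 and Isg15 were higher in OEG-like cells and Rsad2 was lower, at -1.74 (adjusted p = 0.0138). The change with genotype itself differed between the classes for 3 of 8 members, against 0.0757% of genes tested. KO lowered Ifit3 more in OEG-like than in RoB astroglia-like cells by 2.18 on the log2 scale (SE 0.30, adjusted p = 3.30e-04), Ifit3b by 2.58 (SE 0.38, adjusted p = 7.62e-04) and Rsad2 by 3.91 (SE 0.71, adjusted p = 0.0122). The test was added after the data were seen. Without KO old mouse 2, 1 of the 3 calls was left, and without WT old mouse 2, 2 were, with Rsad2 not tested. Rsad2 in RoB astroglia-like cells was at 9.66 and 8.85 CPM for WT young, 12.8 and 16.5 for WT old, 5.69 and 13.5 for KO young, and 8.03 and 11.6 for KO old mice, so the genotypes overlapped there.

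With age, OEG-like cells of WT mice differed in 2 of 9 tested members, against 2.02% of all genes tested. Ifit1 was higher in WT old mice by 0.88 on the log2 scale (SE 0.16, adjusted p = 0.0124), and Isg15 was lower by 1.93 (SE 0.33, adjusted p = 0.00658). Both calls were lost when WT young mouse 2, WT old mouse 1 or WT old mouse 2 was left out, with adjusted p between 0.0630 and 0.140 at log2 changes of 0.73 to 1.02 for Ifit1 and of -1.95 to -1.78 for Isg15, and also when each cell was thinned to 1000 UMIs (0.492 for Ifit1 and 0.493 for Isg15). In KO mice 0 of 9 differed with age, against 0.278% in either direction, with 0 at an unadjusted p under 0.05 in edgeR and 0 called by DESeq2. No member's age change differed between genotypes in the edgeR test of the interaction, where 0% of the 10084 genes tested were called, with 1 of 9 at an unadjusted p under 0.05 and 0 called by DESeq2, which gave 6 of them no adjusted p. The share of OEG-like cells with 3 or more members was 22.7% in WT old against 10.4% in WT young mice, at median depths of 8040 and 5991 UMIs per cell.

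In vSVZ astroglia-like cells 0 of 7 members changed with age in WT mice, against 15.3% of all genes tested in either direction, with 1 at an unadjusted p under 0.05 in edgeR and 0 called by DESeq2, which gave 5 of them no adjusted p. The 95% interval of the age change was -0.74 to 0.11 for Ifit3 and -0.91 to 0.09 for Ifit3b. In KO mice 1 of 7 rose with age, against 2.16% of genes called higher. This was Rsad2, at 1.64 and 5.46 CPM for KO young and 11.0 and 11.0 for KO old mice, a log2 change of 1.58 (SE 0.46, adjusted p = 0.0466). Its call was lost when any 1 of the 4 KO mice or either WT young mouse was left out, with adjusted p from 0.0536 to 0.385.

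Microglia-like cells, found in small number in a sort that gated out CD45+ cells, had nearly all their member UMIs in WT mice. All 10 members together had 36 UMIs in 149 cells of WT young and 29 UMIs in 43 cells of WT old, against 1 UMI in 93 cells of KO young and 1 UMI in 43 cells of KO old mice. The summed level was 25.5 times higher in WT than in KO young mice (interval 4.30 to 1035) and 29.6 times in old mice (4.91 to 1209). A single WT old cell held 20 of the 29 UMIs, and without it the level there was 36.5 CPM. Per mouse, WT young mice were at 122 and 34.6 CPM and WT old mouse 1 at 165, against 0 and 2.80 for the KO young mice and 4.22 for KO old mouse 2. None of the members passed the filter on low counts over both ages, so 0 of 0 were called, where 0.616% of the 4546 genes tested were. Rtp4 with 11 UMIs and Isg15 with 9 were the members seen most often in WT young microglia-like cells, and both were at 0 in KO young mice.

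Endothelial-like cells had too few hashtagged cells per mouse to be tested. Their 14 WT young and 21 WT old cells had 24 and 28 member UMIs, and their 41 KO young and 25 KO old cells had 15 and 10. The summed level in KO was 67.7 CPM (interval 37.9 to 112) when young and 74.5 (35.7 to 137) when old, below the WT intervals given above. Rtp4 was at 75.8 and 119 CPM in WT and at 0 in both KO libraries. Rsad2 was found in both genotypes, at 71.2 (26.1 to 155) for WT old and 44.7 (16.4 to 97.2) for KO old, and these intervals overlapped.

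Ifit2 had the highest level of the members in activated progenitor-like and neuroblast-like cells of every library. In activated progenitor-like cells it was at 26.9 CPM for WT young (interval 24.2 to 29.8), 23.4 for WT old (16.3 to 32.5), 30.04 for KO young (26.8 to 33.6) and 33.9 for KO old (27.5 to 41.5). These intervals overlapped between the genotypes at each age. In neuroblast-like cells it was at 13.04 and 20.8 for WT young and old and at 14.7 and 15.7 in KO, and in oligodendrocyte-like cells at 32.5 for WT old and 39.6 for KO old. Ifit2 was the only member that could be tested in neuroblast-like cells, and 0 of 1 was called over both ages, against 0.8% of the 6753 genes tested (log2 fold change -0.30, adjusted p = 0.897, 0 at an unadjusted p under 0.05 and 0 by DESeq2, which gave no adjusted p). The other 9 members were low in these cells. In activated progenitor-like cells of WT young mice they lay between 0 and 3.95 CPM, and in neuroblast-like cells of WT young mice between 0 and 2.40. Of these, Rtp4 in activated progenitor-like cells had 53 UMIs in WT young against 12 in KO young, a ratio of 3.40 (interval 1.80 to 7.00), and Oasl2 had 16 against 1, a ratio of 12.3 (1.92 to 517). In old mice Rtp4 had 3 UMIs in WT against 5 in KO, and Oasl2 had 5 against 0. Across 24 combinations of class and library, which share libraries and depth, the level of Ifit2 had a Pearson r of 0.19 with the sum of the other members, while the other 9 had r from 0.62 to 0.85.

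Of the genes outside the set, those whose level followed the summed members most closely over the same 24 combinations were Ifi27 (r = 0.92), Gbp2 (0.89), Gstm4 (0.88), Hadhb (0.87) and BC006965 (0.87). Ifi27, an interferon-induced gene of mitochondria, was at 841 and 810 CPM in WT young and old OEG-like cells and at 394 and 387 in KO. Hadhb, an enzyme of fatty acid oxidation, was high in OEG-like cells of all libraries, at 532 to 715, and was not ordered by genotype.

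Genes of the pathway outside the set were also called lower in KO OEG-like cells. Of all 10084 genes tested there, 0.387% were called lower over both ages. Which of the pathway genes passed the filter on low counts only through the WT mice was not analysed here, so their counts only describe the lists. Irf7, a transcription factor of the interferon response, was called lower in KO over both ages (adjusted p = 0.0117), and in old mice Irf9 was, by 1.60 on the log2 scale (SE 0.27, adjusted p = 0.00563). Of other antiviral effectors 5 of 13 tested were called lower over both ages, namely Bst2 (by 3.39 on the log2 scale, SE 0.32), Parp14 (by 1.65), Xaf1 (by 0.72), Ifitm3 (by 0.61) and Ifi44. Of RNA and DNA sensors and adaptors 1 of 4 was called lower, the double-stranded RNA kinase Eif2ak2 (by 1.07, adjusted p = 0.0211), and Ifih1 was called in old mice. The only other OAS or IFIT gene that could be tested, Oasl1, was called lower (adjusted p = 0.0346), and of the ISG15 conjugation genes 0 of 3 tested was (Uba7, Ube2l6, Herc6 and Trim25 were looked for). None of these lists had a gene called higher in KO OEG-like cells over both ages. In vSVZ astroglia-like cells Bst2 (by 2.32) and Ifitm3 (by 0.72) were called lower over both ages, and in microglia-like cells Bst2 was (by 1.39). Mx1 and Mx2 were not analysed here.

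On the side of the receptors, Ifnar2 and Ifngr2, which were not targeted, did not pass the test between genotypes in OEG-like cells, with log2 changes of -0.08 (SE 0.10) and 0.06 (SE 0.24), while Ifngr1 fell by 4.65 (SE 0.20, adjusted p = 1.46e-11) and Ifnar1 by 2.17 (SE 0.29, adjusted p = 2.64e-04). Interferon ligands were hardly detected: 20 ligand genes together had 11 UMIs in all retained cells, 3 each in WT young, WT old and KO old and 2 in KO young, and 7 of these were of Ifnz.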

How the data were processed

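Single cells of the vSVZ and the pooled other tissue (RoB) were profiled with 10x 3′ chemistry in 4 expression libraries with 4 matching hashtag libraries. The authors filtered index-hopped reads, pseudoaligned with kallisto and bustools to GRCm38 and analysed cells with Scanpy 1.6.0. The deposited values are UMI counts per gene and barcode, with no cell filter applied, and the sources used here do not state whether they hold spliced or unspliced reads. The matrix has 32287 gene IDs, of which 32158 were named from GENCODE vM21.

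Barcodes were kept as cells where they had 100 to 6000 genes, a total of 1000 to 20000 UMIs and a mitochondrial share below 10%, and 339 predicted doublets of 18390 cells were removed in scanpy 1.11.5. Mice were called from the hashtag counts by a mixture of 5 components. Cells were clustered on 2000 variable genes without the members or other interferon genes, with 50 principal components, 15 neighbours and leidenalg 0.10.2 at resolution 1, and classes were named from marker lists. UMIs were summed per mouse and class, with at least 20 cells per mouse, and tested in edgeR 4.0.16 (R 4.3.3) with filterByExpr, TMM factors, the quasi-likelihood test and Benjamini-Hochberg adjustment over all genes tested at 0.05. DESeq2 1.42.0 was an alternative, as were other size factors, low-count filters, hashtag calls, clusterings, thinning and leaving out each mouse. The scripts were tested on simulated data. Levels are CPM (UMIs per 1000000 UMIs of a class), with exact 95% Poisson intervals that cover counting error only.

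Each group of 2 mice was 1 reaction, so group and reaction cannot be told apart. The p-values rest on the spread between these mice, with the estimate of each gene moderated by that of all genes tested. They therefore do not measure the spread of a single member by itself. The named genes were the 10 members, the receptors and ligands, called genes of the pathway lists and the genes of most similar pattern. The members and lists were chosen with earlier results of these data known. The sample whose labels give no group (1 of 9) and 1 column of per-sample values were not used. Part of the results for the pathway lists is not reported here.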

Additional observations from a re-analysis of the deposited data

Results flagged for a closer look

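The change with genotype differed between OEG-like and RoB astroglia-like cells of the same mice for 3 of 8 members. Of all genes tested, 0.0757% were called lower by this edgeR test of the difference itself, which was added after the data were seen. Of the 3, only Ifit3 and Ifit3b passed the filter on low counts in RoB astroglia-like cells by themselves. The count is no support beyond the single genes, and the calls depended on single mice, as given above. The difference on the log2 scale, OEG-like minus RoB astroglia-like, was -2.18 for Ifit3, -2.58 for Ifit3b and -3.91 for Rsad2. For Ifit1 the 95% interval of this difference was -6.99 to 1.198 and for Isg15 it was -1.38 to 5.64, so differences of either sign remained possible for these members.

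Barcodes with at least 5 and under 100 UMIs, which no comparison used, held UMIs of the members. Their summed level was 68.6 CPM in WT young and 147 in WT old, above the KO values of 23.0 (5 UMIs) and 44.7. The part of such free or low-content RNA in the levels of retained cells was not tested.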

How the results depend on the processing

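No called member changed direction under any alternative, and 217 of 245 alternative fits and 204 of 240 fits without 1 mouse kept the call; in OEG-like cells 332 of 361 did and in vSVZ astroglia-like cells 89 of 124. Fits in which a called member had no value, as where it failed the filter on low counts, are left out of these shares. They are not counted as lost calls. In vSVZ astroglia-like cells over both ages, Ifit1 and Oasl2 each had 13 fits with a value, against 17 for Ifit3. No paired analysis was possible because no mouse is shared between genotypes or ages, and a hashtag number that recurs in each group marks different mice. Only the difference between classes was taken within mice, with the mouse as a term. With each cell thinned to 1000 UMIs, the members called between genotypes in vSVZ astroglia-like cells went from 4 to 0 over both ages and from 3 to 0 in young mice, those changed with age in KO from 1 to 0, those called in OEG-like cells of young mice from 6 to 3, and those changed with age in WT OEG-like cells from 2 to 0. With at most 1 UMI of a gene per cell, a setting chosen after seeing the data, these counts were 1, 0, 0, 3 and 0. At Leiden resolution 0.5, and also without the eYFP-rich cluster, the first 2 counts were 1 and 1. At least 10 UMIs in place of the edgeR filter gave 1 call in vSVZ astroglia-like cells of old mice and 1 in microglia-like cells over both ages, where the main counts were 0. With no filter beyond 1 UMI these were 3 and 1, the age count in WT OEG-like cells was 4 and the interaction of age and genotype there was 1. The age count in KO vSVZ astroglia-like cells was 0 with DESeq2 and 0 with the strict hashtag call. Between genotypes in OEG-like cells of old mice, DESeq2 called 5 members where edgeR called 7. Leaving out 1 mouse gave 1 to 4 calls in vSVZ astroglia-like cells over both ages, 1 to 3 in young mice, 0 to 1 with age in WT and 0 to 1 in KO; in OEG-like cells it gave 0 to 2 with age in WT and 0 to 1 for the interaction, and 1 to 3 for the difference between classes. The lone mouse left in a group was then assumed to vary like the others. The DESeq2 results of 14 comparisons, in which members had no adjusted p, are left out of these counts. The age comparison in KO vSVZ astroglia-like cells was kept although 2 members had none. The cause of these changes was not tested.

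The level of the summed members moved by more than its counting interval in 7 of 89 alternatives. At Leiden resolution 0.5 it was 92.4, 110.5 and 46.4 CPM in astroglia-like cells of WT young, WT old and KO young, 54.2 in activated progenitor-like cells of KO old and 8.57 in neuron-like cells of KO old. With predicted doublets kept it was 18.9 in neuron-like and 799.6 in OEG-like cells of WT old. Endothelial-like cells were too few per mouse to be tested.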
